A study of Homo sapiens with 12 samples.

Results

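The RNA-seq counts of 10 basic leucine zipper (bZIP) transcription factor genes were examined: CREM, CREB5, JDP2, BATF3, MAFF, MAFG, MAFK, NFIL3, CEBPB and CEBPD. They were chosen by name, as CREB, MAF, BATF and CEBP type factors that can pair with the AP-1 proteins JUN and FOS or act beside them. The rule itself uses no measured value, but earlier results of these data were known when the names were listed. All 10 were found among the 20771 genes of the count table, and all 10 were among the 16515 genes that passed the filter on low counts, although CREB5 passed it only through the libraries in which it was high. Of the 16515 genes tested, 13.9% were higher at 48 h in EW8 by both thresholds (adjusted p under 0.05, fold over 2), against 4 of the 10 factors (CREM, CREB5, MAFF and CEBPB). In TC71 the background was 3.26%, against 3 of the 10 factors (CREM, CREB5 and MAFF). CREB5 could not but differ once it had passed that filter, and with at least 10 counts asked of every library it dropped out, leaving 3 calls in EW8 and 2 in TC71. No member was lower by both thresholds in either line, where the background was 3.35% in EW8 and 0.854% in TC71.

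The study asked which genes respond to loss of RRM1, the large catalytic subunit of ribonucleotide reductase, in Ewing sarcoma, a bone and soft tissue cancer driven by an EWSR1 fusion. EW8-RRM1-KO and TC71-RRM1-KO are Ewing sarcoma lines in which CRISPR/Cas9 disrupted the endogenous RRM1 gene while a codon-optimized RRM1 transgene, switched on by doxycycline, kept the cells growing. Both lines carried Cas9, the guide and the transgene in every library, and each was grown from single cells after the knockout, so each line stands for the clone or clones taken. Libraries labelled 0 h came from cells with doxycycline and those labelled 48 h from cells 48 h without it, with 3 libraries in each of the 4 groups and 12 in all. Nothing in the labels says that the 3 libraries of a group came from separate cultures, so the p-values measure only the spread between these libraries, which may be technical. Doxycycline was present in one condition and absent in the other, so its withdrawal and the loss of RRM1 cannot be told apart.

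bZIP proteins bind DNA as dimers: a basic region reads the DNA and a leucine zipper sets which partners can join. CREB, CREM and ATF1 prefer the cyclic AMP response element (CRE), JUN and FOS dimers prefer the shorter TPA response element (TRE), MAF proteins need a longer element with extra bases on each side, and CEBP proteins read a CCAAT-related site. Some members activate transcription, whereas others lack an activation domain and act as repressors or as silent partners. MAFF, MAFG and MAFK, the small MAFs, are such short proteins and work as partners of the CNC factors, among them NFE2L2 and BACH1. CREM is known for an internal promoter that gives rise to the short repressor ICER after cyclic AMP signals, and CEBPB and CEBPD are classic early targets of inflammatory cytokines.

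Promoter sequence is shown for the 4 factors that passed both thresholds in at least 1 line, because the elements these families read are found near some of their starts. RefSeq windows of GRCh38.p14, running from 250 bases before to 50 bases after an annotated start, were at hand for 7 of the 10 genes (20 windows), with none for BATF3, MAFK and CEBPD. Both strands were searched for the CRE (TGACGTCA), the TRE (TGAGTCA, which reads TGACTCA on the other strand), the CRE core (TGACG, which lies within every CRE) and the TATA box (TATAAA). Each stretch below is written 5′ to 3′ on the plus strand, with the match in capitals.
CREM, chr10:35195841-35195870, CRE upstream of the internal start at 35195902: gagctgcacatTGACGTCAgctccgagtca
MAFF, chr22:38201929-38201958, CRE upstream of the start at 38201994: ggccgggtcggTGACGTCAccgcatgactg
CREB5, chr7:28686078-28686107, TRE upstream of the internal start at 28686133: tgggaaggataTGACTCActcaagctagtt
CEBPB, chr20:50190761-50190790, CRE core upstream of the start at 50190830: gaggggccggcgTGACGcagcggttgctac

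The CRE began 50 bases before the CREM start at 35195902 and 54 bases before the MAFF start. The MAFF match lies in an annotated exon, inside a locus that begins at 38200767, and the CREB5 TRE also lies in an exon. The CREM match also fell just inside the neighbouring window, whose start at 35195850 lies 2 bases before it, so 2 of the 7 CREM windows held the element, both at internal starts. The CRE core of CEBPB began 57 bases before that start, with a TATA box 29 bases before it. A CRE core was also found in windows of JDP2, MAFG and NFIL3, 1 window each. Of all 35116 windows in the RefSeq set, 1.85% held a CRE, 4.95% a TRE, 24.6% a CRE core and 11.5% a TATA box, so the core and the TATA box are common by themselves. At the canonical CREB5 start (28412518) neither a CRE nor a TRE was found, and a TATA box began 31 bases before it. The 250 bases before that start, chr7:28412268-28412517, lie in no annotated exon and are printed with the TATA box in capitals, since CREB5 went from no count to an expressed gene.
CREB5: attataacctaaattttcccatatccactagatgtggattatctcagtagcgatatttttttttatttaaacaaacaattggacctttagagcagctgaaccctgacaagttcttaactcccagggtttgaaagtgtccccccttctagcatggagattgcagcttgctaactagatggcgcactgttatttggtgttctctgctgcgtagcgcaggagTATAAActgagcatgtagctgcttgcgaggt
The counts are per gene and do not show which start was used.

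CREM, a CREB family activator or repressor depending on its isoform, rose in both lines. It lies on the plus strand of chr10:35126791-35212958 (hg38). Levels are given as CPM, the read count scaled to a common effective library size. In EW8, CREM stood at 14.4, 12.8 and 13.8 CPM in the libraries labelled 0 h and at 86.9, 96.7 and 93.1 CPM in those labelled 48 h. In TC71 it stood at 17.9, 19.3 and 17.5 CPM at 0 h and at 39.6, 42.2 and 42.2 CPM at 48 h. The groups did not overlap in either line, and the EW8 libraries began below those of TC71 and ended above them. EW8 showed a 6.73-fold rise (log2 2.75, SE 0.06, edgeR adjusted p = 3.79e-28) and TC71 a 2.27-fold rise (log2 1.18, SE 0.06, adjusted p = 5.31e-17). The rise was 2.96-fold larger in EW8 (log2 difference 1.57, SE 0.09, adjusted p = 7.25e-16). Among all genes tested, CREM lay at the 97.8th percentile of rise in EW8 and at the 97.4th in TC71, so its place in the ranking was alike in the 2 lines although its fold was not.

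The closest relatives of CREM did not rise with it. CREB1, the widely expressed cyclic AMP responsive activator, had a log2 fold change of 0.06 (adjusted p = 0.335) in EW8 and fell by 0.42 on the log2 scale (adjusted p = 2.27e-08) in TC71. ATF1, the closest relative of both, had 0.07 (adjusted p = 0.346) and -0.01 (adjusted p = 0.921). Per kilobase of exon, CREM made up 8.81% ± 0.202 (SD, n = 3) of the summed level of CREM, CREB1 and ATF1 in EW8 at 0 h and 38.3% ± 0.207 at 48 h. In TC71 its share went from 15.4% ± 1.49 to 31.2% ± 1.11. The share of ATF1 went from 70.1% ± 0.663 to 47.6% ± 0.528 in EW8 and from 55.1% ± 1.72 to 49.1% ± 1.37 in TC71. The CREM shares of the 2 times did not overlap in either line, but with 3 libraries against 3 an exact two-sided permutation test cannot go below p = 0.1, which is the value it gave for each line (adjusted p = 0.164 over the 18 shares tested).

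CREB5, a CRE-binding factor that can pair with JUN, was not detected in any of the 6 libraries labelled 0 h and was counted in all 6 labelled 48 h. It spans chr7:28299321-28825894 on the plus strand, the longest of the 10 loci. EW8 had 162, 180 and 175 reads at 48 h, and TC71 had 10, 5 and 14. A count of 0 in 3 libraries allows up to 3 counts over the group, which is 0.0411 CPM in EW8 and 0.0420 CPM in TC71. Against these limits the 48 h level of CREB5 was at least 213-fold higher in EW8 and at least 8.09-fold higher in TC71. These folds take in the counting error at 0 h alone, not that of the 48 h reads. No p-value is read for CREB5, since the gene entered the test through the libraries in which it was high. At 48 h CREB5 reached 8.73 CPM ± 0.252 in EW8 and 0.334 CPM ± 0.130 in TC71, 25.4-fold apart in the fit (log2 4.66, SE 0.20). With TC71 filtered on its own libraries CREB5 was too low to be tested, so its TC71 call rests on the filter over all 4 groups.

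Among the genes of the table at 0 in every 0 h library, CREB5 had the most reads in EW8 at 48 h. There were 14 such genes with no read in all 6 libraries labelled 0 h. Of these, 6 reached at least 10 counts in every EW8 library labelled 48 h. Some genes have no row at all, such as most of the markers of other cell types. They are not among the 14, so that number does not show how rare such an absence is. CREB5 had 517 reads there in all, whereas the next of the 6 genes had 60. No difference between the responses of the 2 lines could be estimated by edgeR for a gene at 0 in both 0 h groups.

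**Figure D1:**
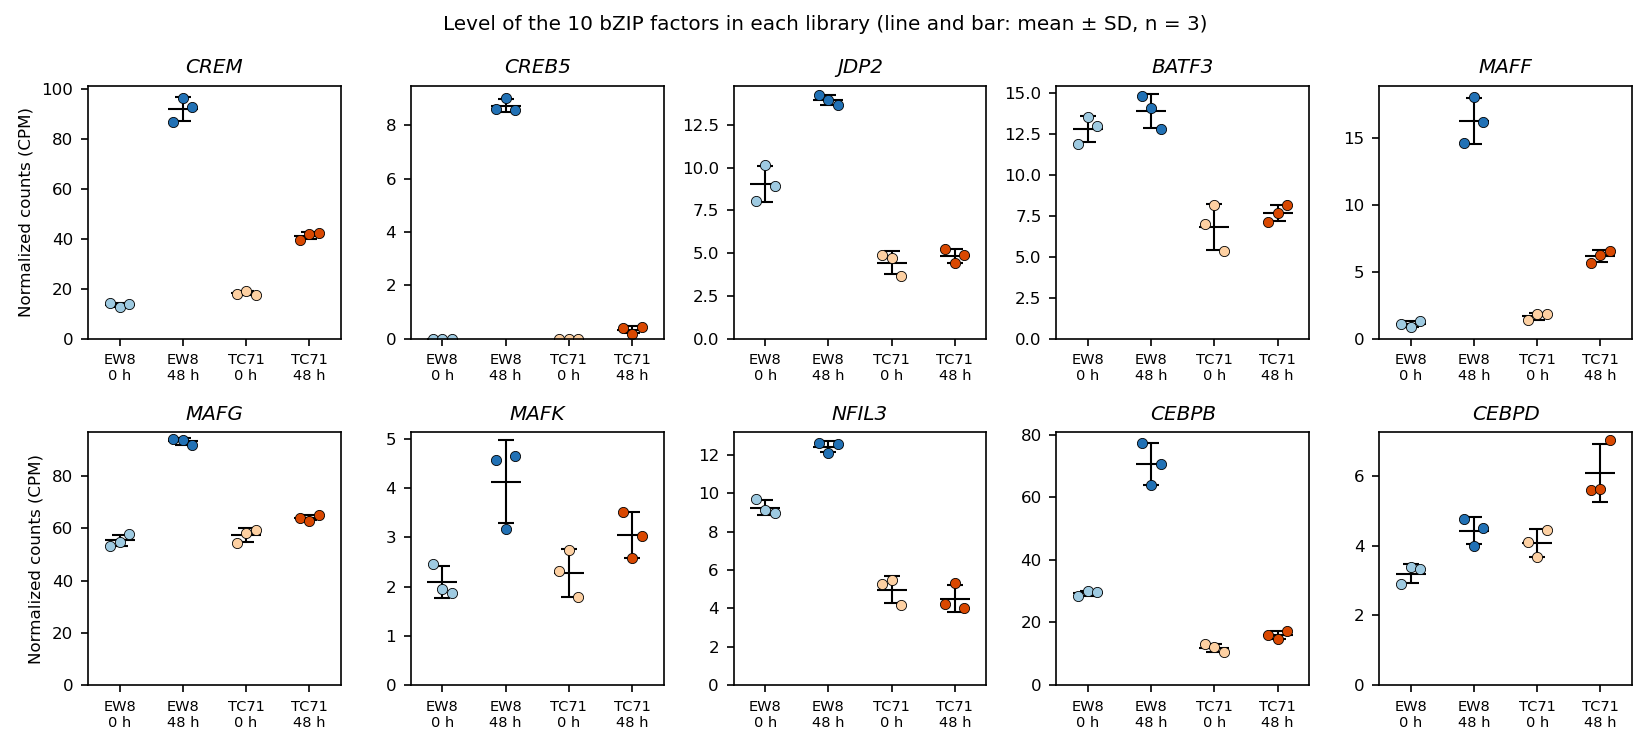
Level of each factor in each of the 12 libraries, in CPM (vertical axis from 0) by line and time, with points for libraries and lines for the mean ± SD (n = 3). CREM, CREB5, MAFF and CEBPB rose more than 2-fold in EW8, MAFF from 1.07 to 16.3 CPM on average, whereas the BATF3 libraries of the 2 times overlapped in both lines.

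JDP2, which represses AP-1 sites as a dimer with JUN proteins, rose in EW8 only below the fold threshold. Its EW8 libraries stood at 8.06, 10.1 and 8.91 CPM at 0 h and at 14.3, 13.9 and 13.7 CPM at 48 h (log2 fold change 0.64, SE 0.10, adjusted p = 8.44e-07). The TC71 libraries stood at 4.92, 4.71 and 3.68 CPM at 0 h and at 5.23, 4.40 and 4.89 CPM at 48 h, where the groups overlapped (log2 fold change 0.12, 95% interval -0.13 to 0.38, adjusted p = 0.444). The difference of the responses was 0.51 on the log2 scale (SE 0.16, adjusted p = 0.00827). Without the first TC71 library labelled 0 h it was 0.41 and no longer passed (adjusted p = 0.0564).

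BATF3, a short JUN partner needed for one class of dendritic cells, did not pass the test in either line. It ranged from 11.9 to 13.5 CPM at 0 h and from 12.8 to 14.8 CPM at 48 h in EW8, and from 5.34 to 8.14 and from 7.14 to 8.16 CPM in TC71. EW8 gave a log2 fold change of 0.12 (95% interval -0.08 to 0.32, adjusted p = 0.288), and TC71 one of 0.18 (95% interval -0.05 to 0.41, adjusted p = 0.199). These intervals hold no change as large as 2-fold. Scaling by total counts alone brought BATF3 past the p threshold in EW8 (0.25, adjusted p = 0.0333), and leaving out the second TC71 library labelled 0 h did so in TC71 (0.31, adjusted p = 0.0387).

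MAFF, the small MAF known to be induced by stress and cytokines, had the largest fold of the 9 members with counts at 0 h, in both lines. It lies at chr22:38200767-38216507 on the plus strand. The EW8 libraries held 1.05, 0.859 and 1.31 CPM at 0 h and 14.6, 18.1 and 16.3 CPM at 48 h. Those of TC71 held 1.38, 1.81 and 1.82 CPM at 0 h and 5.69, 6.27 and 6.56 CPM at 48 h. All libraries labelled 48 h were above all those labelled 0 h, in both lines. The rise was 14.5-fold in EW8 (log2 3.86, SE 0.14, adjusted p = 3.48e-22) and 3.73-fold in TC71 (log2 1.90, SE 0.15, adjusted p = 1.97e-12), with a log2 difference of 1.96 (SE 0.24, adjusted p = 2.41e-08). MAFF stood at the 99.2nd percentile of rise in EW8 and at the 99.1st in TC71.

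MAFG and MAFK, which bind the same elements as MAFF, moved less. MAFG stood at 53.4, 55.0 and 57.8 CPM in the EW8 libraries at 0 h and at 94.3, 94.0 and 91.8 CPM at 48 h, a 1.68-fold rise (log2 0.75, SE 0.05, adjusted p = 1.61e-15). In TC71 it went from 57.3 CPM ± 2.66 to 64.2 CPM ± 1.09 (log2 0.16, SE 0.05, adjusted p = 0.00675), a call that was lost without the first library labelled 0 h (0.13, adjusted p = 0.0785). EW8 exceeded TC71 in its MAFG response by a log2 difference of 0.59 (SE 0.07, adjusted p = 1.24e-08). MAFK was counted at 34 to 98 reads a library. Its fold in EW8 was 1.99 (log2 0.99, SE 0.18, adjusted p = 1.19e-05), just short of the threshold, and the fold passed 2 under total counts alone (log2 1.12), without the first EW8 library labelled 0 h (1.08) and without the second labelled 48 h (1.15). In TC71 the log2 fold change of MAFK was 0.43 (SE 0.18, adjusted p = 0.0526). It passed under total counts (adjusted p = 0.0352) and with the replicate number as a block (adjusted p = 0.0486). It also passed without the second EW8 library labelled 48 h, the second TC71 library labelled 0 h or the second labelled 48 h (adjusted p = 0.0421, 0.0245 and 0.0220).

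Per kilobase of exon, MAFG remained the main small MAF while the share of MAFF grew. MAFF made up 1.70% ± 0.310 (SD, n = 3) of the summed small MAF level in EW8 at 0 h and 13.4% ± 1.33 at 48 h. In TC71 it made up 2.53% ± 0.276 and 7.84% ± 0.545. MAFG went from 94.1% ± 0.761 to 82.3% ± 0.809 in EW8 and from 93.1% ± 0.885 to 87.3% ± 0.310 in TC71. The MAFK share was between 3.23% and 5.59% in every library, with overlapping groups. The MAFF and MAFG shares of the 2 times did not overlap, with the same smallest exact permutation p of 0.1 in each line.

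**Figure D2:**
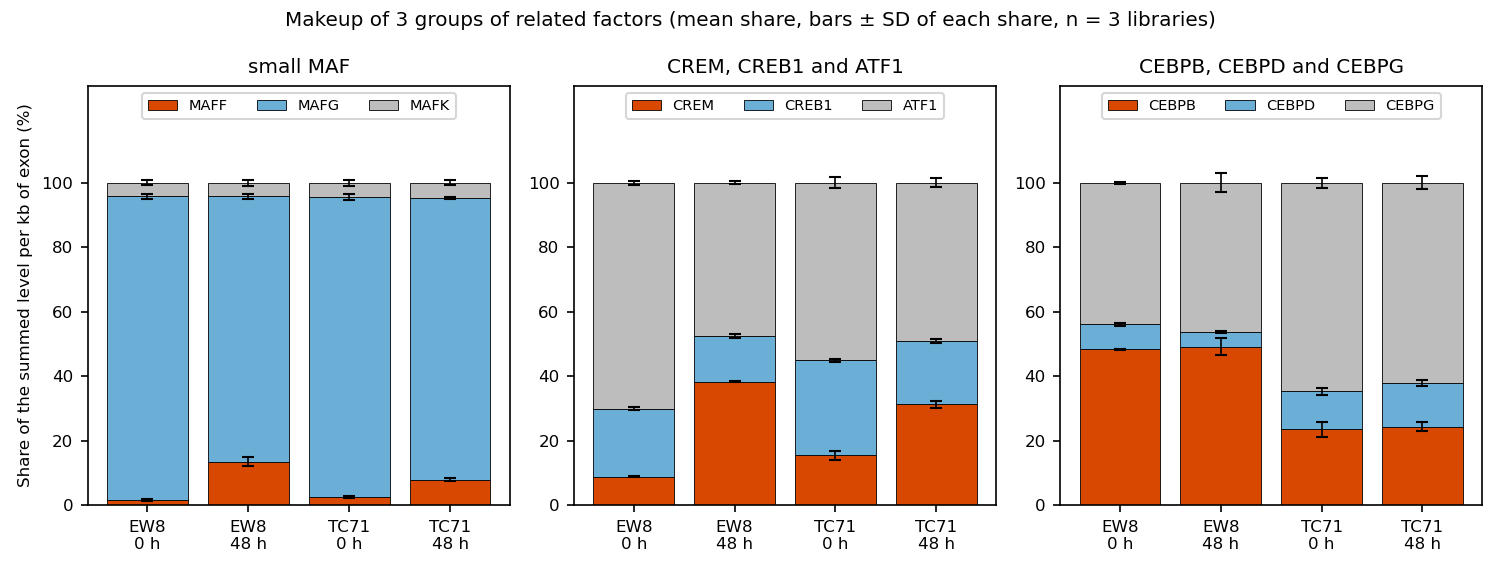
Makeup of the small MAFs, of CREM with CREB1 and ATF1, and of CEBPB with CEBPD and CEBPG, as the mean share (%) of the summed level per kilobase of exon by line and time (error bars: SD of each share, n = 3). The MAFF share rose from 1.70% to 13.4% and the CREM share from 8.81% to 38.3% in EW8, whereas the CEBPB share was 48.4% and 49.1%.

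NFIL3, a repressor of the PAR bZIP sites that DBP, HLF and TEF activate, rose in EW8 by the p threshold alone and did not pass in TC71. The EW8 libraries ranged from 8.97 to 9.68 CPM at 0 h and from 12.1 to 12.6 CPM at 48 h (log2 fold change 0.43, SE 0.10, adjusted p = 3.63e-04). The TC71 libraries ranged from 4.18 to 5.49 CPM at 0 h and from 3.99 to 5.30 CPM at 48 h, so the groups overlapped (log2 fold change -0.15, 95% interval -0.40 to 0.10, adjusted p = 0.352). The responses differed by 0.58 on the log2 scale (SE 0.16, adjusted p = 0.00322). TEF, one of the activators NFIL3 opposes, had a log2 change of -1.03 in EW8 (adjusted p = 2.13e-14), and of -0.18 for TC71 (adjusted p = 0.0227).

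CEBPB, a CEBP activator of inflammatory and metabolic genes, rose past both thresholds in EW8 and by less in TC71. It is a single exon gene at chr20:50190830-50192668, plus strand. The EW8 libraries stood at 28.5, 29.96 and 29.7 CPM at 0 h and at 77.4, 63.9 and 70.5 CPM at 48 h, a 2.40-fold rise (log2 1.26, SE 0.07, adjusted p = 3.63e-17). The TC71 libraries stood at 13.1, 12.1 and 10.6 CPM at 0 h and at 16.1, 14.7 and 17.3 CPM at 48 h, a 1.34-fold rise (log2 0.43, SE 0.09, adjusted p = 1.52e-04). The groups separated in both lines. EW8 exceeded TC71 in this response by a log2 difference of 0.84 (SE 0.11, adjusted p = 1.47e-07).

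CEBPD, a cytokine-induced relative of CEBPB, rose in both lines by the p threshold alone. It went from 3.20 CPM ± 0.268 to 4.43 CPM ± 0.392 in EW8 (log2 0.47, SE 0.14, adjusted p = 0.00495) and from 4.08 CPM ± 0.396 to 6.10 CPM ± 0.825 in TC71 (log2 0.58, SE 0.12, adjusted p = 2.62e-04). The difference of the responses was -0.11 on the log2 scale, with a 95% interval of -0.50 to 0.28 (adjusted p = 0.656). CEBPG, a CEBP protein with no activation domain, rose with CEBPB in EW8 (log2 fold change 1.32, adjusted p = 1.54e-22). Among CEBPB, CEBPD and CEBPG, the share of CEBPB per kilobase overlapped between the times, at 48.4% ± 0.152 and 49.1% ± 2.66 in EW8 and 23.5% ± 2.36 and 24.3% ± 1.49 in TC71.

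Of the 9 factors with counts at 0 h, CREB5 set aside, 8 passed the adjusted p threshold alone in EW8, all as rises, where 37% of the genes tested rose and 31.6% fell by that rule. In TC71, 5 of the 9 did so, all as rises, against 22.9% that rose and 19.2% that fell. With CREB5 at its lower bounds, the median log2 change of the 10 stood at 0.87 (EW8) and 0.43 (TC71), beside 0.03 and 0.00 over all genes tested. The response was larger in EW8 by both thresholds for CREM and MAFF, 2 of the 9 factors, against 7.28% of the genes tested. By adjusted p alone it was larger in EW8 for 6 of the 9 factors, against 25.7%. MAFK (0.57, adjusted p = 0.0679), BATF3 and CEBPD did not pass that edgeR test. MAFK passed it under total counts and with any of 4 single libraries left out (0.64 to 0.73, adjusted p = 0.0192 to 0.0468).

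**Figure D3:**
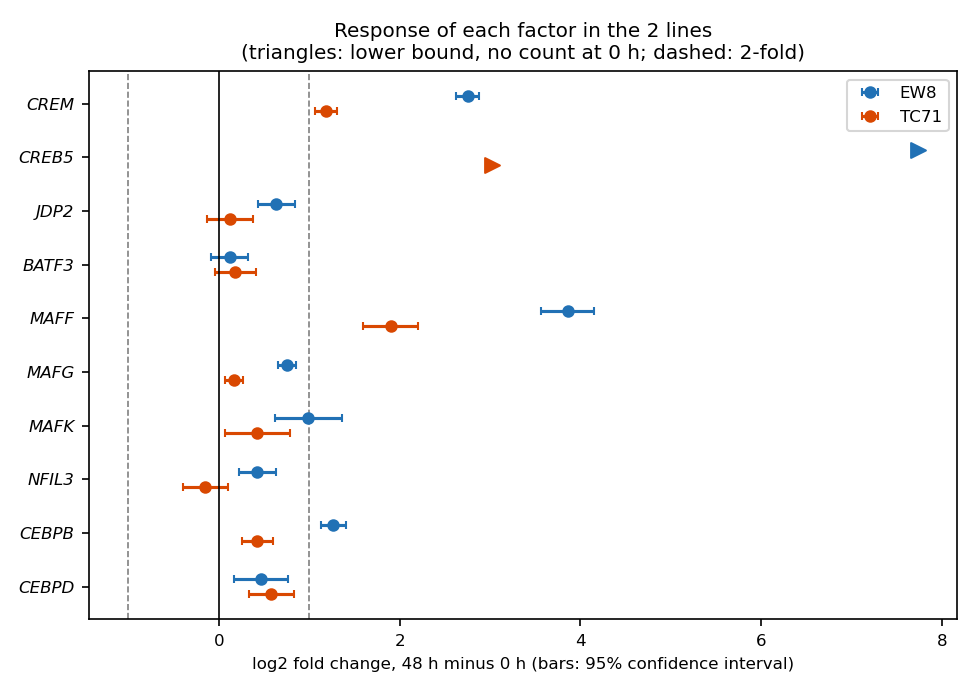
log2 fold change of each factor from 0 h to 48 h (horizontal axis) in EW8 and TC71, with 95% confidence intervals as bars. Triangles mark the lower bounds of CREB5 (at least 213-fold and 8.09-fold), and dashed lines mark 2-fold. MAFF and CREM lay past 2-fold in both lines and CEBPB in EW8 alone, whereas the intervals of BATF3 and of NFIL3 in TC71 included 0.

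The 2 lines already differed at 0 h in part of the group. CEBPB (2.45-fold, log2 1.29, SE 0.08, adjusted p = 2.43e-15) and JDP2 (2.02-fold, log2 1.01, SE 0.12, adjusted p = 1.93e-09) were higher in EW8 by both thresholds, against 4.77% of the genes tested, and no factor was higher in TC71, against 11.9%. JDP2 sat on the fold threshold: its value was 0.95 without the second EW8 library labelled 0 h and 0.90 without the third of TC71. BATF3 (0.92, adjusted p = 3.77e-09) and NFIL3 (0.90, adjusted p = 1.73e-08) were higher in EW8 by p alone. By that rule 32.8% of the genes tested were higher in EW8 and 32.9% in TC71, so 4 and 3 factors of 9 stood near the background. CREM (-0.41, adjusted p = 6.98e-06), MAFF (-0.56, adjusted p = 0.0216) and CEBPD (-0.36, adjusted p = 0.0280) were lower in EW8 by p alone. The calls of MAFF and CEBPD at 0 h were lost on leaving out single libraries, with adjusted p up to 0.0834 for MAFF (without the second EW8 library) and 0.124 for CEBPD (without the first), and DESeq2 did not call CEBPD there (-0.35, adjusted p = 0.0677). Total-count scaling moved the median of all genes in this comparison to -0.14, and MAFG was then lower in EW8 (-0.18, adjusted p = 0.00162) where it had been -0.05 (adjusted p = 0.435).

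At 48 h, 6 factors were higher in EW8 by both thresholds, against 10.5% of the genes tested, and none was higher in TC71, against 11%. Among them, CREB5 entered the test through EW8 at 48 h and dropped out with at least 10 counts asked of every library, leaving 5. The 5 were CEBPB (4.39-fold), JDP2 (2.88-fold), NFIL3 (2.77-fold), MAFF (2.64-fold) and CREM (2.23-fold), with adjusted p-values from 9.16e-23 to 4.01e-14. CREM and MAFF thus changed order between the lines, lower in EW8 at 0 h and higher at 48 h. CEBPD remained lower in EW8 (-0.47, SE 0.13, adjusted p = 0.00131). By p alone 8 of the 9 factors other than CREB5 were higher in EW8 and 1 lower, beside 37.3% and 35.4% of the genes tested.

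Compared per kilobase of exon, the level of CEBPB was highest in EW8 and that of MAFG in TC71. In EW8 at 0 h the order by mean CPM per kilobase was CEBPB (15.96), MAFG (10.6), BATF3 (4.98), NFIL3 (4.50), CEBPD (2.55), CREM (2.39), JDP2 (1.44), MAFK (0.467), MAFF (0.191) and CREB5 (0). BATF3 and NFIL3 overlapped in their libraries, as did CEBPD and CREM. At 48 h CREM (16.2) was the third after CEBPB (38.4) and MAFG (17.8), MAFF (2.91) overlapped with CEBPD (3.54), and CREB5 (0.748) overlapped with MAFK (0.923). In TC71 at 0 h MAFG (10.9) and CEBPB (6.49) led, and CEBPD (3.26), CREM (3.20), BATF3 (2.65) and NFIL3 (2.42) each overlapped with the next. At 48 h the leading TC71 factors were MAFG (12.2), CEBPB (8.72) and CREM (7.25), which did not overlap with each other, and CREB5 (0.0286) was the lowest. Exon length is that of all annotated exons of a gene, so a gene whose cells use a short isoform is placed too low.

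The rise of these factors stood beside that of the JUN and FOS genes. All 8 genes of the JUN, FOS and ATF3 list were higher at 48 h by both thresholds in EW8 and 6 of the 8 in TC71, and all 8 rose in both lines by adjusted p alone. JUN, the leucine zipper partner of JDP2 and BATF3, had log2 fold changes of 6.55 in EW8 and 4.44 in TC71. FOS had 6.29 and 5.77, FOSB 5.13 and 3.84, ATF3 4.89 and 3.37, FOSL1 3.59 and 1.60, and JUNB 2.48 and 1.68 in the same order. MAFF in EW8 thus lay between ATF3 and FOSL1 in fold, and CREM between FOSL1 and JUNB. In TC71 MAFF (1.90) lay between ATF3 and JUNB, and CREM (1.18) lay below both JUNB and FOSL1.

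The other bZIP families were read by the same thresholds, without a test of their shares against those of the 10 factors. Of the 14 other CREB and ATF genes tested, none passed both thresholds in either line by edgeR, with XBP1 in EW8 just under 2-fold (log2 change 0.995, adjusted p = 7.52e-20). By p alone, EW8 had 7 rises with 2 falls and TC71 5 rises with 4 falls. Of all genes tested, 37% rose and 31.6% fell by that rule in EW8, and 22.9% and 19.2% in TC71. Of the large MAF and CNC genes, NRL, a retinal MAF at under 2 CPM, rose in EW8 (log2 change 1.22, adjusted p = 8.79e-05). None of the 7 tested passed both thresholds in TC71, where edgeR gave 3 rises and 2 falls by p alone. The small MAF partners NFE2L2 and BACH1 had log2 fold changes of 0.62 and 0.72 in EW8 (adjusted p = 1.96e-14 and 2.73e-15), and 0.17 and 0.14 in TC71 (adjusted p = 0.00218 and 0.0142). Of the 4 other CEBP and PAR genes tested, DDIT3, the stress-induced CEBP partner CHOP, rose in both lines (5.18 and 2.72), CEBPG rose in EW8 and TEF fell in EW8. BATF2, the only other BATF gene tested, was called in EW8 on a mean of 0.136 CPM and is left without a fold there, and in TC71 it rose by p alone from a mean of 0.814 to 1.66 CPM (log2 change 0.99, adjusted p = 9.3e-04). Over all 34 other bZIP genes tested, 13 were higher and 1 lower in EW8 and 7 higher in TC71 by both thresholds. The 34 include the 8 JUN, FOS and ATF3 genes, which gave 8 of the 13 and 6 of the 7. Of all genes tested, 13.9% were higher and 3.35% lower in EW8, and 3.26% were higher in TC71. The median log2 fold changes of the 34 were 0.56 and 0.18.

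**Figure D4:**
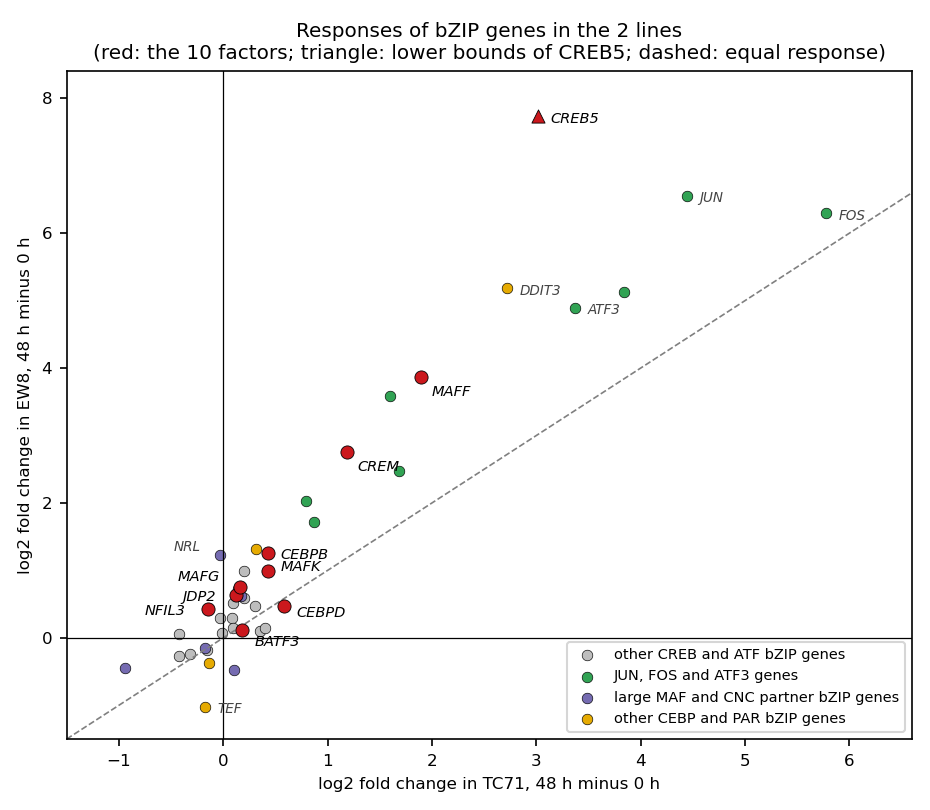
log2 fold change from 0 h to 48 h in EW8 (vertical axis) against TC71 (horizontal axis) for the 10 factors in red and for other tested bZIP genes by family (BATF2 is not drawn), with the dashed line at equal response. CREB5 is drawn at its lower bounds. MAFF (3.86 and 1.90) and CREM (2.75 and 1.18) lay among the JUN and FOS genes, and most other CREB and ATF genes lay near 0.

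Genes of the pathways upstream of these factors were counted in the same way. Of 23 tested genes of the cyclic AMP to CREB pathway, 3 were higher by both thresholds in EW8 and 1 in TC71, and none was lower, shares near the 13.9% and 3.26% of all genes tested. Those of EW8 were the kinase anchor AKAP12 (1.75, adjusted p = 1.18e-21), the cyclase ADCY7 (1.21, adjusted p = 2.18e-10) and the CREB coactivator CRTC1 (1.13, adjusted p = 3.47e-10). That of TC71 was the phosphodiesterase PDE4B (1.10, adjusted p = 3.85e-07), which breaks down cyclic AMP and had 0.97 in EW8 (adjusted p = 5.15e-11). By p alone, EW8 had 14 rises with 4 falls and TC71 12 rises with 1 fall, where 37% and 22.9% of all genes tested rose and 31.6% and 19.2% fell. Of 11 tested genes of the cytokine pathway that induces CEBPB and CEBPD, the receptor subunit IL6R was called higher in both lines. Its means at 0 h and 48 h were 0.236 and 1.49 CPM in EW8, and 0.0426 and 0.219 CPM in TC71. IL6R passed the filter on low counts through EW8 at 48 h alone, so no fold or p-value is read for it. TRIB3, a pseudokinase, rose by both thresholds in EW8 (1.26, adjusted p = 6.86e-20). By p alone, 6 genes of this list rose and 1 fell in EW8, and 5 rose in TC71, with IL6R among the rises of both lines.

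The pattern over the 12 libraries is given as a description. CREM was most like UTRN (Pearson's r of log2 CPM = 0.998) and KBTBD2 (0.996), and MAFF most like GDNF (0.995) and CREM itself (0.9945). CREB5 was most like SLC25A25 and PPP1R10 (both 0.996), MAFG most like ID2 (0.996) and ARHGEF2 (0.992), and CEBPB most like SNX18 (0.995) and SASH1 (0.9945). JDP2 was nearest to CRABP1 (0.995) and MICALL1 (0.990), BATF3 to ARPC4 (0.981) and MRPS18A (0.979), MAFK to CES2 (0.940) and GALNT4 (0.934). NFIL3 was nearest to a gene with no symbol and to LRP1B (0.988), and CEBPD to RXRA (0.959) and a gene with no symbol. Within the group, CREM, CREB5, MAFF and MAFG had r of 0.928 to 0.995 with each other, and JDP2, BATF3, NFIL3 and CEBPB had 0.897 to 0.978. The sets were not apart, since CEBPB had 0.792 with CREB5 and 0.783 with MAFG. CEBPD had no r above 0.589 with any other member. The libraries fall into 4 groups, so these values reflect the line and the time together, and they share depth and scaling.

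The libraries held between 18468485 and 35698991 counts. Replicates differed by more than sampling noise, so none was treated as a repeat of another. RRM1 itself was higher in the libraries labelled 48 h, at 9.37 to 9.67 CPM against 63.9 to 74.1 CPM in EW8 and 15.5 to 17.3 against 24.1 to 26.4 CPM in TC71. The table has no separate row for the codon-optimized transgene, so its RRM1 row does not check the loss that the 48 h label stands for, and the directions above are those between the libraries so labelled. Of 10 Ewing sarcoma markers, 1 was lower by both thresholds in EW8 (BCL11B, -1.11) and none in TC71. Of 8 markers of other cell types, 6 had no row, PTPRC reached a mean of 0.114 CPM at most and EPCAM a mean of 1.46 CPM at most. EPCAM rose by p alone in TC71 (log2 change 0.67, edgeR adjusted p = 0.0353). In bulk RNA, more cells of a kind and more RNA per cell cannot be told apart. CREM, JDP2, MAFF, MAFG, MAFK and CEBPB share 26 to 809 exonic bases with neighbours, MAFK the most (809 with TMEM184A), and the strand setting of the counting is not given in the sources used here.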

How the data were processed

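RNA of 12 libraries was isolated with a column kit, made into stranded poly(A) libraries, checked with FastQC and mapped to hg38 with STAR by the authors, per the labels; the tool, annotation and strand setting of the counting are not given in the sources used here. The authors deposited raw counts per gene (20771 genes, 18468485 to 35698991 counts a library), with no normalization. All 12 columns were mapped to their labels, and 0 columns went unused.

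Low genes were dropped with edgeR's filterByExpr (4 groups, at least 10 counts, at least 15 in total), leaving 16515. TMM factors, a joint dispersion and a robust quasi-likelihood fit in edgeR 4.0.16 (R 4.3.3) followed, with Benjamini-Hochberg adjustment over all genes tested. Calls needed both an adjusted p under 0.05 and a fold over 2. The study's methods name DESeq2 (run here as an alternative, version 1.42.0). Levels are CPM of the TMM effective library size, divided by the union of exons (GENCODE 44, matched for 19943 genes) for comparison between genes. Limits set by a count of 0 use 3 counts over a group, and cover only the counting error of that group. The fit was tested on simulated data.

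Named genes were all 10 members, RRM1, list genes called in both lines, the 2 largest changes called in EW8 per list, and the 2 genes most like each member over the libraries. CREB1, ATF1, XBP1, NFE2L2, BACH1, TEF, CRTC1, PDE4B, PTPRC and EPCAM fall outside that rule and were named after their values were seen. A listed gene is not reported here. The members and lists were chosen with earlier results of these data known. Same-numbered libraries of different groups did not deviate together (correlations -0.138 to 0.106), so the numbers were not used to pair them. Replicates of a group differed by 2.05 to 9.48 chi-square units per gene. Alternatives were other scalings, filters and thresholds, DESeq2, a replicate block, each line alone, and each library left out in turn.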

Additional observations from a re-analysis of the deposited data

Results flagged for a closer look

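For 6 of the 10 factors the change from 0 h to 48 h differed between EW8 and TC71 by the edgeR test of the difference itself, and each was larger in EW8. The log2 difference was 1.96 for MAFF (adjusted p = 2.41e-08), 1.57 for CREM (adjusted p = 7.25e-16), 0.84 for CEBPB (adjusted p = 1.47e-07), 0.59 for MAFG (adjusted p = 1.24e-08), 0.58 for NFIL3 (adjusted p = 0.00322) and 0.51 for JDP2 (adjusted p = 0.00827). Over all genes tested, 25.7% had a larger response in EW8 by that rule. The 2 lines differ in genotype, clone and scaling factor (0.919 to 1.02 in EW8 and 1.02 to 1.06 in TC71), whose part in these differences was not tested.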

How the results depend on the processing

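Of the 1014 values recomputed under alternatives, 982 kept their direction and their side of the adjusted p threshold, 14 no longer passed it, 15 newly passed it and 3 changed sign. Crossings of the fold threshold are not in these counts: they were JDP2 and BATF3 at 0 h and MAFK in EW8. With no fold threshold the calls among the 10 factors were 9 in EW8, 6 in TC71, 6 for the difference of the responses, 7 between the lines at 0 h and 10 at 48 h (CREB5 among the 9, the 6 in TC71 and the 10), and 29 and 26 among the other bZIP genes in EW8 and TC71. Of all genes tested, 32.8% were then higher in EW8 and 32.9% in TC71 at 0 h, and 37.3% and 35.4% at 48 h. The 2 calls at 0 h were 1 under total counts, under upper-quartile factors and with a stricter filter (10 counts or more in each library), since JDP2 then missed the fold threshold. Leaving out each library in turn gave 4 to 5 calls in EW8, 3 in TC71, 2 for the difference, 1 to 3 at 0 h, 6 at 48 h, and 14 to 15 and 7 to 9 among the other bZIP genes. The log2 differences of the responses that changed sign were never past the threshold: BATF3 was 0.012 under total counts and from -0.195 to 0.08 with single libraries left out (highest without TC71 0 h replicate 3), and CEBPD was from -0.199 to 0.008 (highest without TC71 48 h replicate 3). The cause was not tested. With the replicate block the calls were 4, 3, 2, 2 and 6 in the same order, MAFK in TC71 passed (0.43, adjusted p = 0.0486) and no other call of a member changed. MAFK at 48 h between the lines (0.44) no longer passed under upper-quartile factors or with any of 3 single libraries left out (0.33 to 0.37, adjusted p = 0.0619 to 0.113). Same-numbered libraries share only a number. Total-count scaling moved the median of all genes to 0.16 in EW8. DESeq2 gave 3 calls for the difference, with CREB5 added (log2 4.67). Both 0 h groups of CREB5 are at 0, so that value is its 48 h difference between the lines. The added call is not read as a difference of the responses. CREB5 could not be tested under that stricter filter, nor in TC71 alone. Depth limits the values at low counts: CREB5 in TC71 (5 to 14 reads a library at 48 h), MAFF at 0 h (15 to 44) and MAFK (34 to 98).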
